A study of Mus musculus with 48 samples.

Results

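The 9 genes described here were *Gclc*, *Gclm*, *Gss*, *Gsr*, *Slc7a11*, *Hmox1*, *Nqo1*, *Txnrd1* and *Srxn1*, which make and recycle glutathione or are classic effectors of the transcription factor NRF2. They were chosen by name and not by their values. All 9 were listed in both expression tables, which hold 18939 genes for *APOE*-TR mice and 27082 genes for B6 mice, with 16952 in common. Cerebral cortex RNA from 48 mice was sequenced, as 4 mice in each of 12 groups by genotype, sex and exposure. B6 are wild type C57BL/6J mice, labelled as 4 months old, which inhaled filtered air or nPM for 8 weeks. *APOE*3-TR and *APOE*4-TR mice carry human *APOE*3 or *APOE*4 in place of mouse *Apoe*, under the mouse gene's control. They were labelled as 6 months old and inhaled air or nPM for 15 weeks. nPM is the nano-sized fraction of urban particulate matter, re-aerosolized, and mice were exposed on 3 days a week, 5 hr each day. B6 and *APOE*-TR mice differ in exposure run, duration, age and table, so their levels are set side by side without a test.

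Values are the authors' CPM, a gene's reads scaled to library size, and differences are log2 differences of CPM rescaled for library composition. Reads assigned to listed genes were estimated at 17.8 to 31.3 M (mega) in *APOE*-TR libraries and at 2.05 to 24.4 M in B6 libraries. Listed genes summed to 670445 to 880442 CPM and to 526568 to 667121 CPM, so the whole libraries were deeper. Mouse *Apoe* stood at 8.81 to 30.7 CPM in *APOE*-TR mice and at 164 to 503 CPM in B6 mice, as their genotypes imply. In these reads of listed genes, *APOE*-TR females (17.8 to 22.3 M) and males (22.4 to 31.3 M) did not overlap. The CPM of a gene without reads, which falls as the whole library deepens, did overlap. It was 0.0302 in *APOE*4 air female 38 and 0.0305 in *APOE*4 air male 21. The column of 1 *APOE*3 female air mouse, called F6, carries a number found in no sample title, and its name alone placed it in that group. *APOE*3 female air mice 61 and F6 stood apart in the summed CPM of 13 mitochondrial transcripts, with 191953 and 145020 CPM against at most 110182 in the other 30 *APOE*-TR mice, and results that rest on them are also given without them. No marker of astrocytes, microglia, oligodendrocytes, endothelium or neurons averaged below 1 CPM in any group, as cortex should show. Their sums still differed between groups. In B6 air males 7 neuron markers summed to 1973 to 4643 CPM, against 6053 to 6550 in B6 air females. For 7 astrocyte markers the sums were 1162 to 2440 and 3190 to 3683 CPM. Under nPM both sums overlapped between B6 males and females. These are whole-tissue libraries, so fewer cells of a type and less RNA per cell cannot be told apart.

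NRF2, encoded by *Nfe2l2*, is held in the cytoplasm by KEAP1 and degraded. Oxidants and electrophiles modify KEAP1, and NRF2 then enters the nucleus, pairs with small MAF proteins and binds antioxidant response elements. Its targets supply glutathione, thioredoxin and NADPH, remove quinones and break down heme. In the brain, NRF2 target genes are known to be most readily induced in astrocytes, which also supply neurons with the building blocks of glutathione.

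The genes fall into 4 roles. *Slc7a11* encodes xCT, the membrane exchanger that brings in cystine for glutathione synthesis. *Gclc* and *Gclm* encode the catalytic and modifier subunits of glutamate-cysteine ligase, the rate-limiting step, and *Gss* encodes glutathione synthetase, which completes the molecule. *Gsr*, *Txnrd1* and *Srxn1* encode reductases that restore oxidized glutathione, thioredoxin and peroxiredoxins. *Nqo1* reduces quinones, and *Hmox1* is the inducible heme oxygenase.

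The antioxidant response element is the sequence through which NRF2 acts, and it was searched for here with its core letters TGACNNNGC on both strands. RefSeq promoter windows (GRCm38.p6), from 250 bases before to 50 after a start, were at hand for 6 of the 9 genes. *Gclc*, *Gsr* and *Hmox1* had no window. A match was present for 3 of the 6 genes (50%), beside 3781 of 27025 genes (14%) over all windows. The matches are shown because they mark which of these genes carry the motif letters near the start. Each is written 5′ to 3′ on the minus strand, opposite to the gene's own strand, with the motif in capitals and 8 bases on each side:
*Gclm*, chr3:122245415-122245439: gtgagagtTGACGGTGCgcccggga
*Srxn1*, chr2:152105544-152105568: tctcactcTGACCTAGCtgcccact
*Txnrd1*, chr10:82859106-82859130: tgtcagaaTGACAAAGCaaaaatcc
The *Gclm* match begins 134 bases before the start. The *Txnrd1* match begins 92 bases before the start of 1 of its 3 windows. The *Srxn1* match begins at base 29 after its start. No match was found for *Gss*, *Slc7a11* or *Nqo1*, which says only that these letters are not in those windows. A match is a description of the letters and not of binding.

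The most abundant of the 9 genes per length was *Srxn1*. It lies on chr2:152105524-152111377 (mm10, plus strand), and in *APOE*-TR mice its level was 33.7 CPM per kb of exon (median, range 30.7 to 47.8). *Gclc* (chr9:77754535-77794490, plus strand) followed at 9.67 CPM per kb (8.49 to 10.7). *Gsr* (chr8:33653238-33698163, plus strand) was at 5.92 (5.02 to 8.40), *Txnrd1* (chr10:82833951-82897725, plus strand) at 5.55 (5.02 to 6.32) and *Slc7a11* (chr3:50364936-50443614, minus strand) at 4.96 CPM per kb (4.10 to 7.01). The ranges of these 3 overlapped, so their order does not exceed the spread between mice. *Gclm* (chr3:122245557-122267216, plus strand) was at 2.44 CPM per kb (1.88 to 3.06). *Nqo1* (chr8:107388225-107403206, minus strand) stood at 1.99 CPM per kb (1.57 to 5.39), and *Hmox1* (chr8:75093618-75100594, plus strand) at 1.83 (1.43 to 3.18). *Gss* (chr2:155563181-155592811, minus strand) was lowest at 1.25 CPM per kb (1.06 to 2.07). The ranges of *Gclm*, *Nqo1*, *Hmox1* and *Gss* overlapped each other. The catalytic subunit *Gclc* thus stood above its modifier *Gclm* in every *APOE*-TR mouse, with no overlap of their per-length ranges.

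B6 mice also had *Srxn1* first, at 25.4 CPM per kb (18.0 to 32.3), and *Gclc* next, at 13.5 (11.4 to 16.7). *Gsr* at 4.41, *Gclm* at 4.07, *Txnrd1* at 3.34, *Slc7a11* at 2.50, *Hmox1* at 1.79 and *Nqo1* at 1.68 CPM per kb came next, and each range overlapped that of its neighbour. *Gss* was again lowest at 0.564 CPM per kb (0.138 to 0.847). *Slc7a11* was listed from 49892526 in the B6 table, *Gclm* up to 122270733 and *Gsr* from 33652523. Each is a longer gene than in the *APOE*-TR table, so their levels in the tables are not counted over the same model. The values per kb used 1 exon length a gene for both tables, which limits their order as well. *Gss* overlaps *Acss2* and other annotated genes on the opposite strand only. *Txnrd1*, *Slc7a11*, *Gclm* and *Gsr* each overlap an annotated gene on their own strand, so their reads can be shared.

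Spread between mice was small in *APOE*-TR mice and larger in B6 mice. Over the genes and groups, the median coefficient of variation (CV, the SD over the mean of 4 mice) was 6.75% in *APOE*-TR and 22.3% in B6 mice. *Gclc* was the steadiest gene in *APOE*-TR mice, with a median CV of 4.49% over the 8 groups, while *Hmox1* had 13.9% and *Nqo1* 10.3%. In B6 mice *Srxn1* (9.89%) and *Gclc* (10.1%) were steadiest, and *Nqo1* had 51.6%. The low genes rest on few reads. The smallest estimated number in an *APOE*-TR mouse was 69 for *Hmox1* and 71 for *Nqo1*, and in a B6 mouse 17 for *Gss*, 18 for *Hmox1* and 0 for *Nqo1*.

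**Figure D1:**
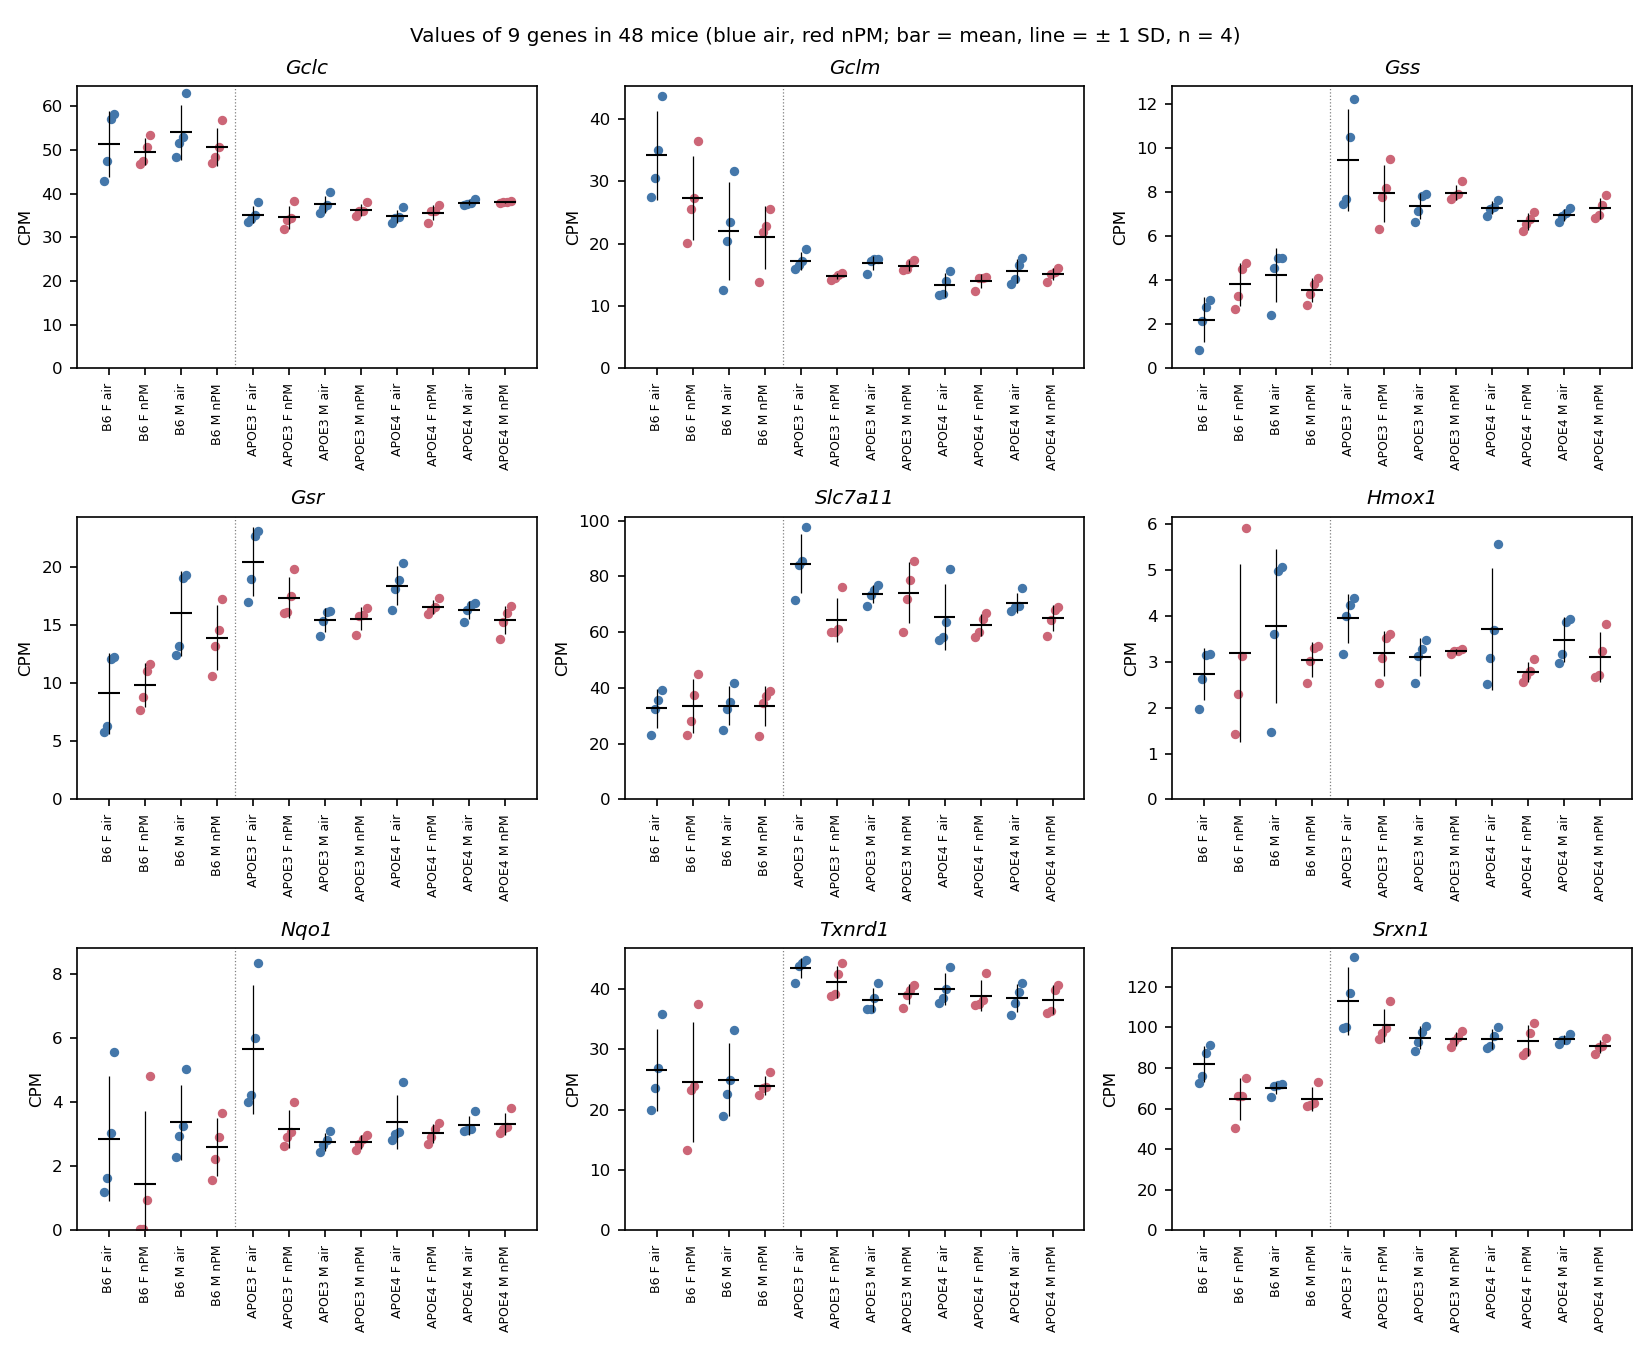
CPM of the 9 genes in each of the 12 groups, with 1 panel a gene, 1 point a mouse (blue air, red nPM), a bar at the mean and a line of ± 1 SD (n = 4); each axis starts at 0, which cuts the SD line of *Nqo1* in B6 nPM females. *APOE*3 air females hold the highest *Nqo1* values, from 4.00 to 8.36 CPM, and 2 B6 nPM females lie at the value of a gene without reads.

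Among the synthesis genes, *Slc7a11* ran from 57.1 to 97.6 CPM in *APOE*-TR mice (median 69.0) and from 22.9 to 44.9 CPM in B6 mice (median 34.8). Its group means in B6 mice lay within 32.6 to 33.5 CPM. *Gclc* ran from 32 to 40.3 CPM (median 36.4) in *APOE*-TR mice and from 42.8 to 63.1 CPM (median 50.7) in B6 mice. *Gclm* ran from 11.8 to 19.2 CPM (median 15.4) in *APOE*-TR mice and from 12.6 to 43.7 CPM (median 25.6) in B6 mice. *Gss* stood at 6.25 to 12.3 CPM (median 7.39) in *APOE*-TR mice and at 0.816 to 5.01 CPM (median 3.34) in B6 mice. The *Slc7a11* and *Gss* values of the strains did not overlap, with *APOE*-TR mice higher, and neither did those of *Gclc*, with B6 mice higher. Strain, exposure, age and table cannot be told apart in these differences.

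Of the reductases, *Srxn1* ran from 86.6 to 135 CPM (median 94.9) in *APOE*-TR mice and from 50.6 to 91.2 CPM (median 71.6) in B6 mice. *Txnrd1* ran from 35.6 to 44.8 CPM (median 39.3) and from 13.4 to 37.5 CPM (median 23.7). *Gsr* ran from 13.8 to 23.1 CPM (median 16.3) and from 5.83 to 19.3 CPM (median 12.2). These 3 genes overlapped between the strains. *Hmox1* was low throughout, at 2.51 to 5.57 CPM (median 3.20) in *APOE*-TR mice and 1.44 to 5.92 CPM (median 3.14) in B6 mice, and its 12 group means lay within 2.73 to 3.94 CPM. *Nqo1* ran from 2.44 to 8.36 CPM (median 3.10) in *APOE*-TR mice and from 0.0330 to 5.57 CPM (median 2.61) in B6 mice.

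Whether inhaled nPM moved these genes was first asked over all 48 mice, with terms for sex and genotype. None of the 8 genes that could be tested passed the rule for nPM, an unadjusted p under 0.005 in limma. The rule called 1.49% of all genes tested. *Nqo1* was not tested because 2 B6 mice had no reads for it. *Srxn1* had the smallest p, with a log2 difference of −0.12 (n = 48 mice, SE 0.045, 95% interval −0.21 to −0.027, limma p = 0.0119, adjusted p = 0.301). It was the 1 gene of the 8 with an unadjusted p under 0.05, which 14.5% of all genes had, and it was at −0.094 (n = 46, p = 0.0322) without mice 61 and F6. The estimates of 7 of the 8 genes lay below 0, with a median of −0.087 against −0.0064 for all genes.

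The intervals of the other genes show what sizes the data allow. *Gclc* differed by −0.030 (SE 0.040) and *Gclm* by −0.095 (SE 0.083, interval −0.26 to 0.071). *Slc7a11* was at −0.095 (SE 0.068), *Gss* at +0.064 (SE 0.10) and *Gsr* at −0.079 (SE 0.095). *Hmox1* was at −0.13 (SE 0.10) and *Txnrd1* at −0.051 (SE 0.068). All of these intervals included 0, so no change of these genes with nPM was detectable over all mice at this spread.

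The *APOE*-TR exposure was then taken alone (32 mice), where the spread is smaller. *Hmox1* differed by −0.15 (n = 32, SE 0.075, interval −0.31 to −0.0012, limma p = 0.0484). *Slc7a11* differed by −0.12 (n = 32, SE 0.056, interval −0.24 to −0.0095, p = 0.0346) and *Gsr* by −0.091 (SE 0.041, interval −0.18 to −0.0070, p = 0.0347). *Nqo1* had the lowest estimate, −0.19 (n = 32, SE 0.096, interval −0.38 to 0.011, p = 0.0638). None of the 9 passed the rule, which called 0.689% of all genes. The 3 genes with p under 0.05 stand beside 17.0% of all genes, and none of the 9 had p under 0.05 without mice 61 and F6, where *Hmox1* was at −0.14, *Slc7a11* at −0.090 and *Gsr* at −0.059. Estimates of 8 of the 9 genes were below 0, with a median of −0.038 against −0.0014 for all genes.

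In the 16 B6 mice alone, the intervals were wider. *Srxn1* differed by −0.23 (n = 16, SE 0.11, interval −0.47 to −0.0014, limma p = 0.0488, adjusted p = 0.854) and *Gss* by +0.27 (interval −0.27 to 0.81). None of the 8 genes tested passed the rule, which called 0.549% of all genes, and *Srxn1* was the 1 gene with p under 0.05, beside 5.80% of all genes.

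**Figure D2:**
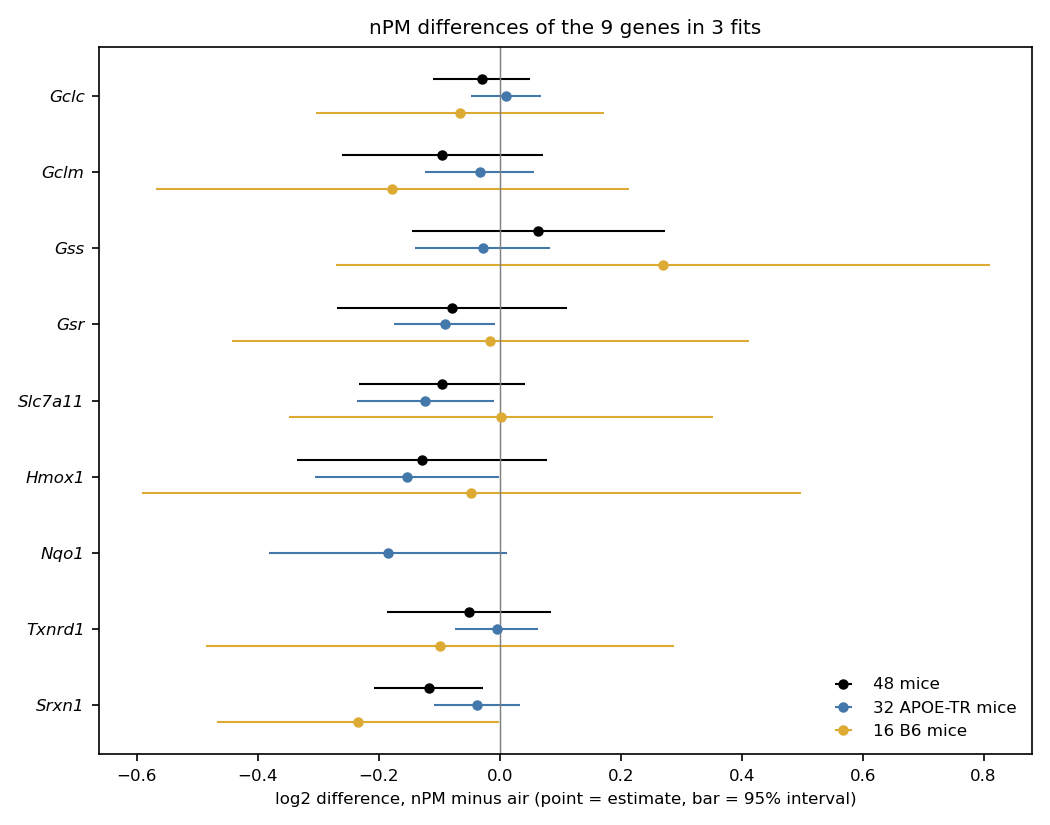
Log2 difference of nPM minus air for each gene (point) with its 95% interval (bar), in the fits of 48 mice, 32 *APOE*-TR mice and 16 B6 mice; *Nqo1* could be tested in the *APOE*-TR mice alone. Most points lie left of 0, the B6 intervals are the widest, and the *Srxn1* interval of the 48 mice ends at −0.027.

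The groups were then compared 4 against 4. In *APOE*3 females, nPM went with lower values of *Nqo1*, *Slc7a11* and *Gclm* than air, and none of the 9 genes passed the rule, which called 0.672% of all genes. The estimates of 8 of the 9 were below 0, with a median of −0.16 against −0.0029 for all genes.

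*Nqo1* stood at 4.22, 8.36, 4.00 and 6.02 CPM in *APOE*3 air females 52, 61, 63 and F6. In the nPM females 55, 59, 67 and 70 it stood at 4.01, 2.93, 2.65 and 3.07 CPM. Mice 61 and F6 were the highest of all 48, and the groups overlapped by the near-equal values of mice 63 and 55. The means were 5.65 ± 2.02 and 3.16 ± 0.590 CPM (SD, n = 4 each), and limma gave a log2 difference of −0.65 (SE 0.21, interval −1.1 to −0.17, adjusted p = 0.230). The exact permutation p, two-sided over 70 labelings, was 0.0571 on the deposited values and 0.0286, the smallest possible, on the rescaled ones, where the groups did not overlap. The difference was −0.33 without mice 61 and F6.

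*Slc7a11*, the cystine carrier, stood at 83.9, 85.5, 71.4 and 97.6 CPM in the *APOE*3 air females and at 59.9, 60.2, 61 and 76.2 CPM in the nPM females. Only nPM mouse 70 reached into the air range. The means were 84.6 ± 10.7 and 64.3 ± 7.95 CPM (SD, n = 4 each), a log2 difference of −0.33 (SE 0.12, interval −0.61 to −0.050, limma p = 0.0258, adjusted p = 0.230), with an exact permutation p of 0.0571. It was −0.25 without mice 61 and F6, and its limma p was over 0.05 when mouse 52, F6, 55, 59 or 67 was left out.

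*Gclm*, the modifier subunit, stood at 17.2, 19.2, 15.9 and 16.6 CPM in the *APOE*3 air females and at 15.3, 14.6, 14.2 and 15.1 CPM in the nPM females. All air values lay above all nPM values, on the deposited and on the rescaled scale. The means were 17.2 ± 1.42 and 14.8 ± 0.499 CPM (SD, n = 4 each), and the exact permutation p was 0.0286, the smallest possible. limma, which draws its spread toward that of all genes, gave −0.15 (SE 0.096, adjusted p = 0.298). The difference was −0.14 without mice 61 and F6. *Gclm* was the 1 gene of the 9 without overlap on the deposited scale, where 6.61% of all genes had none, and *Gclm* and *Nqo1* had none on the rescaled scale, beside 6.81% of all genes. An unadjusted p under 0.05 was seen for 2 of the 9 genes, *Nqo1* and *Slc7a11*, and for 21.0% of all genes.

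The other 6 genes gave log2 differences from −0.22 (*Hmox1*) to +0.037 (*Gclc*) in *APOE*3 females. *Gss* and *Gsr* were at −0.16 each, *Srxn1* at −0.087 and *Txnrd1* at −0.016. Measures of other kinds differed between the same groups. The 13 mitochondrial transcripts summed to 88260 to 191953 CPM in *APOE*3 air females and to 51851 to 110182 CPM in *APOE*3 nPM females. The summed 7 microglial markers ran from 327 to 459 CPM in air and from 239 to 325 CPM in nPM, with 4 of the 7 at p under 0.05 and lower in nPM. The summed 7 oligodendrocyte markers ran from 4880 to 7101 and from 3741 to 5103 CPM, and the 7 astrocyte markers from 3193 to 4232 and from 3286 to 4130 CPM. The 5 choroid plexus markers summed to 26.1 to 1468 CPM in air and to 8.18 to 92.0 CPM in nPM, and 3 of them (*Folr1*, *Kcnj13* and *Prlr*) averaged below 1 CPM in some groups. The part of these in the differences of *Nqo1*, *Slc7a11* and *Gclm* was not tested. None of the 9 genes had p under 0.05 in this comparison without mice 61 and F6.

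**Figure D3:**
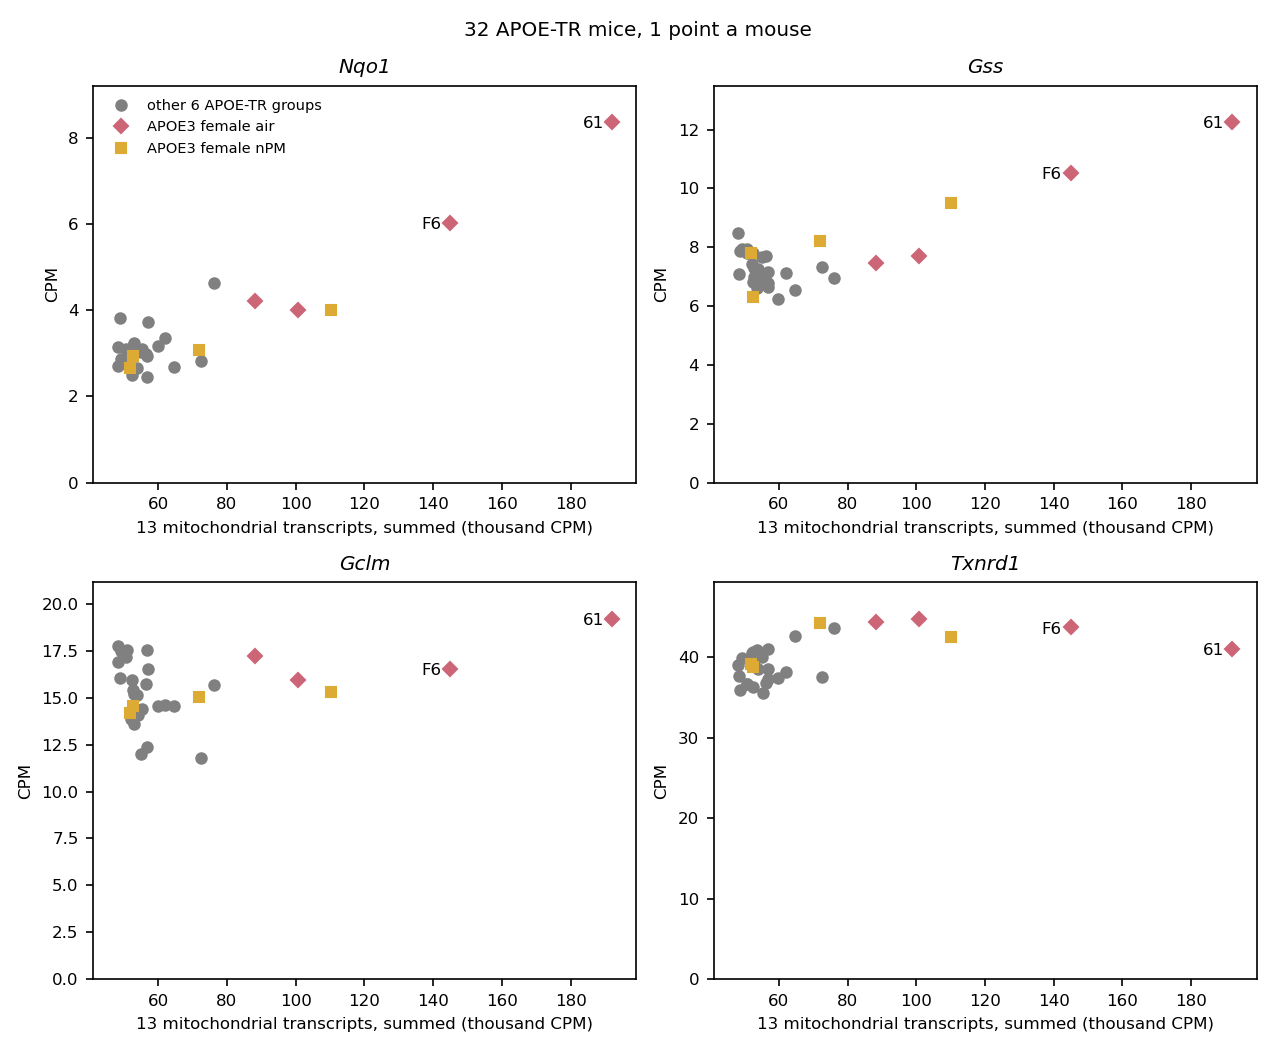
CPM of *Nqo1*, *Gss*, *Gclm* and *Txnrd1* against the summed CPM of 13 mitochondrial transcripts (in kCPM, kilo-CPM) in 32 *APOE*-TR mice, 1 point a mouse, with *APOE*3 air females as diamonds, *APOE*3 nPM females as squares and the other 6 groups as grey circles. Mice 61 and F6 lie farthest right and have the 2 highest *Nqo1* and *Gss* values, while their *Txnrd1* values lie among those of other mice.

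In B6 females, none of the 8 genes tested passed the rule, which called 1.18% of all genes, and none had p under 0.05, as 10.4% of all genes had. *Srxn1* stood at 76, 87.6, 91.2 and 72.7 CPM in air and at 50.6, 66.2, 75.3 and 66.4 CPM in nPM. Only 1 nPM value reached into the air range. The means were 81.9 ± 8.91 and 64.6 ± 10.2 CPM (SD, n = 4 each), a log2 difference of −0.30 (SE 0.16, limma p = 0.083), with an exact permutation p of 0.0571 on deposited and 0.0857 on rescaled values.

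*Gss* went the other way in B6 females, at 2.81, 2.17, 0.816 and 3.09 CPM in air and 3.29, 4.50, 4.78 and 2.68 CPM in nPM. The groups overlapped, with the lowest air value far under the rest. The means were 2.22 ± 1.01 and 3.81 ± 0.995 CPM (SD, n = 4 each), a log2 difference of +0.77 (SE 0.39, interval −0.056 to 1.6, limma p = 0.0653), with an exact permutation p of 0.0857. With the spread taken from all 12 groups instead of the 8 mice, *Gss* (0.79) and *Srxn1* (−0.33) both passed the rule, as did 10.7% of all genes in that fit. That spread takes in the less variable *APOE*-TR groups and can understate that of B6 mice. The median CV of *Gss* was 27.5% in B6 and 6.06% in *APOE*-TR mice, and that of *Srxn1* 9.89% and 5.52%. Markers of cell types differed between the same groups. The 7 astrocyte markers summed to 3190 to 3683 CPM in B6 air females and to 2428 to 2944 CPM in B6 nPM females, without overlap. The 7 neuron markers summed to 6053 to 6550 and 4274 to 6433 CPM, the 7 oligodendrocyte markers to 1351 to 3048 and 1172 to 3133 CPM, and the 7 microglial markers to 145 to 166 and 142 to 198 CPM. Their part in the differences of *Srxn1* and *Gss* was not tested.

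*Nqo1* was listed at the value of a gene without reads in B6 nPM females 50 and 51. The other 2 nPM females had 4.81 and 0.964 CPM, and the air females 1.21, 1.64, 5.57 and 3.04 CPM, so the groups overlapped (exact permutation p = 0.200). Libraries 50 and 51 held 16.5 and 15.6 M estimated reads in listed genes. A count of 0 there allows up to 0.0990 and 0.104 CPM (3 counts of the whole library, counting error only). The lowest value in the other 14 B6 mice was 0.964 CPM. Of 12336 genes with at least 0.9 CPM in each of those 14 mice, 269 had no reads in at least 1 of these libraries and 16 had none in both, *Nqo1* among them. The floor of 0.9 CPM was chosen after these values were seen.

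In B6 males all 9 genes were estimated below 0, from −0.34 (*Nqo1*) to −0.024 (*Slc7a11*), with a median of −0.14. The smallest limma p was 0.360, for *Nqo1*, whose exact permutation p was 0.314. The smallest exact permutation p was 0.143, for *Srxn1*, at 70.2 ± 2.96 CPM in air and 64.7 ± 5.75 CPM in nPM (SD, n = 4 each). Thus none of these exceeded the spread between mice. The rule called 0.241% of all genes, and 4.40% had p under 0.05.

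*APOE*3 males had the narrowest range of estimates among the *APOE*-TR group pairs, from −0.043 (*Gclc*) to +0.11 (*Gss*), with a median of 0.010. Their smallest limma p was 0.197. *Nqo1* averaged 2.76 ± 0.282 CPM in air and 2.76 ± 0.210 CPM in nPM (SD, n = 4 each), a log2 difference with an interval from −0.21 to 0.23. The rule called 0.154% of all genes in these males, and 2.25% had p under 0.05.

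In *APOE*4 females 7 of 9 genes were estimated below 0 (median −0.046). The lowest was *Hmox1* at −0.31 (SE 0.18, exact permutation p = 0.229). *Gsr* had the smallest limma p, at −0.14 (SE 0.076, limma p = 0.0950, exact permutation p = 0.0857 on deposited and 0.114 on rescaled values). The rule called 0.260% of all genes and 5.61% had p under 0.05, with none of the 9 among either. *APOE*4 males had 6 of 9 below 0 (median −0.028). *Slc7a11* was the nearest to the threshold, at −0.11 (SE 0.058, limma p = 0.0781, exact permutation p = 0.0857 on deposited and 0.114 on rescaled values). There the rule called 0.178% of all genes, and 4.18% had p under 0.05.

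Differences between responses were tested directly. The nPM response of females minus that of males was not called for any of the 8 genes tested, beside 1.98% of all genes past the rule and 13.7% with p under 0.05. The smallest p was that of *Srxn1* (−0.088, n = 48, SE 0.084, limma p = 0.298). The response of *APOE*4 minus that of *APOE*3 mice was not called for any of the 9 genes, beside 0.727% and 10.6% of all genes. *Nqo1* had the smallest p here, with +0.27 (n = 32, SE 0.15, interval −0.026 to 0.57, p = 0.0719), and +0.12 (n = 30, p = 0.351) without mice 61 and F6. The estimates of *APOE*3 females were the lowest of the 4 *APOE*-TR group pairs for *Nqo1*, *Slc7a11* and *Gclm*, but a difference from the other pairs was not shown.

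*APOE*4 was compared with *APOE*3 at a 5% false discovery rate. Over all mice none of the 8 genes tested was called, beside 0.370% of all genes, and none had p under 0.05, as 14.5% of all genes had. The estimates of 7 of 8 were below 0, with a median of −0.084 against −0.012 for all genes. *Srxn1* was at −0.11 (n = 48, limma p = 0.0545), *Slc7a11* at −0.16 (p = 0.0548), *Gclm* at −0.17 (p = 0.104) and *Gss* at −0.19 (p = 0.147). Adjusted p-values were 0.349 or more.

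The fit of the 32 *APOE*-TR mice, which leaves out the more variable B6 mice, called *Gclm*. *Gclm* averaged 17.2 ± 1.42 CPM in *APOE*3 air females against 13.4 ± 1.85 in *APOE*4 air females (SD, n = 4 each). In air males the averages were 16.9 ± 1.15 and 15.6 ± 1.91 CPM, in nPM females 14.8 ± 0.499 and 14 ± 1.1 CPM, and in nPM males 16.5 ± 0.813 and 15.1 ± 0.909 CPM. The *APOE*4 mean was the lower in all 4 pairs. Over the 32 mice the log2 difference of *Gclm*, *APOE*4 minus *APOE*3, was −0.15 (n = 32, SE 0.044, interval −0.24 to −0.055, limma p = 0.00253, adjusted p = 0.0472).

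This call stood near its threshold. It was kept in 9 of the 32 runs that leave out 1 mouse and lost in the other 23, with estimates from −0.160 to −0.128 and unadjusted p from 0.000959 to 0.00531. It was kept without *APOE*3 air male 55 or 63, *APOE*4 air male 21 or 32, *APOE*4 air female 7, *APOE*4 nPM male 23 or 33, or *APOE*3 nPM female 59 or 67, and lost without any other mouse. With mice 61 and F6 both left out the estimate was −0.13 (n = 30, p = 0.00508) and was not called. It was kept with voom and with edgeR quasi-likelihood on recovered reads, which called none of the 9 genes in any other comparison they were run on. Astrocyte markers were also estimated lower in *APOE*4 mice in this fit, with 7 of 7 below 0 (median −0.18) and 3 called, and endothelial markers had 7 of 7 below 0 (median −0.11) with none called. Their part in the *Gclm* difference was not tested.

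*Gss* followed *Gclm* in the 32 mice, at −0.17 (n = 32, SE 0.055, interval −0.28 to −0.055, limma p = 0.00481, adjusted p = 0.0590), and without mice 61 and F6 it was −0.11 (p = 0.0180). *Slc7a11* was at −0.14 (n = 32, SE 0.056, p = 0.0164, adjusted p = 0.0839) and *Srxn1* at −0.085 (SE 0.035, p = 0.0201, adjusted p = 0.0888). *Gclc*, the partner of *Gclm* in the same enzyme, was at +0.050 (n = 32, p = 0.0888). *Gsr* (−0.014), *Hmox1* (−0.029), *Nqo1* (−0.037) and *Txnrd1* (−0.036) lay nearer to 0. Thus 1 of 9 genes was called beside 5.96% of all genes. Of the 9, 4 had p under 0.05 beside 38.5% of all genes, each of the 4 lower in *APOE*4. Without mice 61 and F6 (n = 30 mice), *Slc7a11* was at −0.11 and *Srxn1* at −0.056. In that run 3 of 9 had p under 0.05, each lower in *APOE*4, beside 23.3% of all genes. *Srxn1* was no longer among them, and none of the 9 was called.

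**Figure D4:**
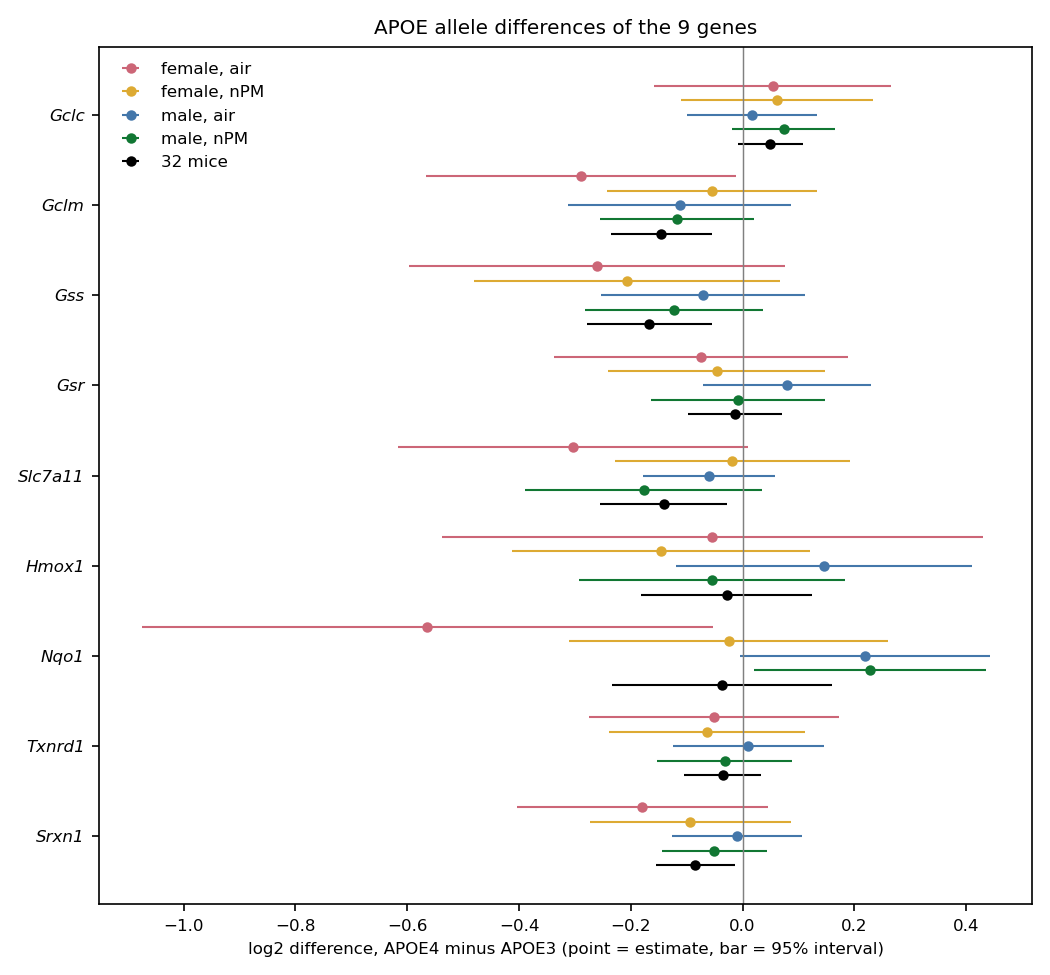
Log2 difference of *APOE*4 minus *APOE*3 for each gene (point) with its 95% interval (bar), in females and males in air or nPM (4 against 4) and over the 32 *APOE*-TR mice. The *Gclm* interval of the 32 *APOE*-TR mice, −0.24 to −0.055, lies below 0, and the *Nqo1* points lie below 0 in air females and above 0 in males.

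Within sex and exposure the alleles were compared 4 against 4, and none of the 9 genes was called. In air females, *Nqo1* stood at 4.64, 2.82, 3.08 and 3.02 CPM in *APOE*4 mice 7, 21, 26 and 38, with the *APOE*3 air values given above. The groups overlapped through *APOE*4 mouse 7. The mean of 3.39 ± 0.840 CPM (SD, n = 4) lay below that of *APOE*3, with a log2 difference of −0.56 (SE 0.23, interval −1.1 to −0.052, limma p = 0.0343, adjusted p = 0.10) and an exact permutation p of 0.0857. Leaving out mice 61 and F6 brought the *Nqo1* difference to −0.25.

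*Gclm* in air females stood at 15.7, 11.8, 14.1 and 12 CPM in *APOE*4, all below the lowest *APOE*3 value on the deposited scale. The log2 difference was −0.29 (SE 0.12, interval −0.57 to −0.011, adjusted p = 0.112). The exact permutation p was 0.0286 on deposited values and 0.0571 on rescaled values, where the groups overlapped. *Slc7a11* was at −0.30 (exact permutation p = 0.0571 on deposited and 0.114 on rescaled values). *Gss* was at −0.26 and *Srxn1* at −0.18, and 8 of 9 estimates were below 0 (median −0.18). An unadjusted p under 0.05 was seen for 2 of 9 genes and for 41.1% of all genes, a 5% false discovery rate for 0.232% of all genes, and deposited values without overlap for 29.3% of all genes. The 38 genes called here became 6404 without *APOE*3 mouse 52 and 312 without both 61 and F6, none of them among the 9. Neither *Nqo1* nor *Gclm* had p under 0.05 without mice 61 and F6, or when 61, F6, 21, 26 or 38 alone was left out. The *Gclm* difference was −0.28 without both 61 and F6.

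*Nqo1* lay the other way in males. In air males it stood at 2.83, 2.66, 2.44 and 3.11 CPM in *APOE*3 and at 3.11, 3.72, 3.14 and 3.17 CPM in *APOE*4 mice. The log2 difference was +0.22 (SE 0.10, limma p = 0.0534), with an exact permutation p of 0.0571 on deposited values, which touched, and 0.0286 on rescaled values, which did not overlap. In nPM males it stood at 2.98, 2.87, 2.70 and 2.50 CPM in *APOE*3 and at 3.17, 3.82, 3.23 and 3.05 CPM in *APOE*4 mice, without overlap on either scale. The log2 difference was +0.23 (SE 0.094, interval 0.020 to 0.44, limma p = 0.0346, adjusted p = 0.471), with an exact permutation p of 0.0286, and p was over 0.05 without *APOE*3 mouse 76 or *APOE*4 mouse 33 or 65. The air and nPM comparisons use different mice.

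These male values are to be read beside all genes. In air males 0.439% of all genes were called, 5.81% had p under 0.05 and 3.74% did not overlap on rescaled values. In nPM males 0.499% were called, 9.90% had p under 0.05, and 5.66% on deposited or 5.76% on rescaled values did not overlap. *Nqo1* was the 1 gene of the 9 with p under 0.05 in nPM males, and the next was *Gclm* (−0.12, exact permutation p = 0.0857). In nPM females the smallest limma p was 0.122, with 8 of 9 estimates below 0 (median −0.055), beside 0.145% of all genes called and 9.12% with p under 0.05. Whether the allele difference of *Nqo1* itself differed between the sexes was not tested.

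Females were also compared with males over all mice. None of the 8 genes tested was called at 5% false discovery rate, while 36.4% of all genes were called and 45.8% had p under 0.05. *Gclc* was at −0.088 in females (n = 48, SE 0.040, interval −0.17 to −0.0079, limma p = 0.0320, adjusted p = 0.0776) and *Srxn1* at +0.089 (p = 0.0531). Of the 38 other NRF2 target genes tested, 14 were called. Females were higher in 9: *Me1*, *Ggct*, *Chac2*, *Txn2*, *Prdx1*, *Prdx6*, *Fth1*, *Nqo2* and *Cbr1*. They were lower in 5: *G6pdx*, *Cbs*, *Abcc1*, *Txnip* and *Mafg*. Of these 14, *Me1*, *Prdx1*, *G6pdx*, *Abcc1* and *Mafg* were not called without mice 61 and F6. Endothelial markers were called lower in females for 6 of 7 and astrocyte markers called higher for 4 of 7. B6 air males had lower neuron and astrocyte marker sums than B6 air females, as given above. In *APOE*-TR mice the sexes differ in reads of listed genes, also given above. The part of these in the sex differences was not tested.

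The other genes of the NRF2 pathway were taken from a list of 47 targets and partners, chosen by function. In the fit of all mice, 38 of them were tested for nPM and 2 passed the rule, both regulators, beside 1.49% of all genes. *Mafg*, a small MAF partner of NRF2, rose by 0.28 on the log2 scale (n = 48, SE 0.088, limma p = 0.00275, adjusted p = 0.301). *Nfe2l2*, which encodes NRF2 itself, fell by 0.28 (n = 48, SE 0.090, limma p = 0.0033, adjusted p = 0.301). Neither passed the rule without mice 61 and F6, where *Mafg* was at 0.19 (n = 46, p = 0.0074) and *Nfe2l2* at −0.24 (p = 0.0103). In *APOE*-TR mice alone *Nfe2l2* was at −0.12 (n = 32, p = 0.0541) and in B6 mice alone at −0.56 (n = 16, p = 0.0170). *Mafg* was at 0.29 in either set (n = 32, p = 0.0174, and n = 16, p = 0.0833). *Nfe2l2* also missed the rule with voom and ComBat (−0.21, n = 48, p = 0.0180) and without a filter on low values (−0.26, n = 48, p = 0.00724). The list had 26 of 38 estimates below 0 with a median of −0.056, beside −0.0064 for all genes.

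Each functional group of the list was counted in the same fit, where 51.5% of all genes were below 0 and 14.5% had p under 0.05. All 5 heme and iron genes tested were below 0 (median −0.10), with 1 at p under 0.05. The quinone and carbonyl reductases had 4 of 5 below 0 (median −0.095), the thioredoxin system 5 of 6 (median −0.087) and NADPH supply 4 of 6 (median −0.019). Genes of glutathione supply, export and breakdown were split, with 4 of 8 below 0 (median −0.024). Regulators had 1 of 5 below 0, which was *Nfe2l2*. None of the groups apart from the regulators held a gene past the rule.

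In *APOE*3 females, 1 of 46 list genes passed the rule for nPM, beside 0.672% of all genes. *Nqo2*, a quinone reductase related to *Nqo1*, ran from 9.39 to 13.7 CPM in air and from 6.07 to 7.88 CPM in nPM. The ranges did not meet, as was so for 6.61% of all genes. The means were 11.6 ± 2.19 and 7.10 ± 0.755 CPM (SD, n = 4 each), and *Nqo2* fell by 0.59 (SE 0.14, limma p = 0.00258, exact permutation p = 0.0286). It no longer passed without 61, 63, F6, 59, 67 or 70, and was at −0.41 without both 61 and F6. At p under 0.05 the list had 12 genes lower and 3 higher in nPM, beside 21.0% of all genes, and without both 61 and F6 it had 1 lower and 1 higher, beside 4.86%. All 6 quinone and carbonyl reductases and all 5 heme and iron genes were estimated below 0 with and without these mice, as were 50.3% of all genes with them and 49.6% without. Their medians were −0.46 and −0.51, and without the mice −0.24 and −0.23.

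Other list genes that passed the rule were few. It called 0.154% of all genes in *APOE*3 males and 0.178% in *APOE*4 males. Deposited values of air and nPM did not overlap for 1.55% and 2.54% of all genes there. *Maff*, another small MAF gene, rose by 0.50 in *APOE*3 males (limma p = 0.00249, exact permutation p = 0.0286), from 0.574 to 1.02 CPM, and was not past the rule without mouse 63, 73, 58 or 76. *Ftl1*, the ferritin light chain, rose by 0.46 in *APOE*4 males (limma p = 0.00186, exact permutation p = 0.0286), from 54.4 to 73.8 CPM. It was not past the rule without mouse 3, 91, 23 or 65. With the spread taken from all 12 groups 0 of 11067 genes passed in this comparison, so that fit could not decide on *Ftl1*. *Osgin1*, an oxidative stress-induced growth inhibitor, rose by 0.32 in *APOE*4 males (limma p = 0.00492, exact permutation p = 0.0286) from 0.148 to 0.306 CPM, near the limit of these depths. With 1 mouse left out it passed only without 91 or 23, and it missed the rule with a pseudocount of 2, without TMM, with voom and with edgeR. For the response of females minus that of males *Blvra*, a biliverdin reductase that acts after heme oxygenase, was at −0.61 (n = 48, SE 0.18, p = 0.00183). For the response of *APOE*4 minus that of *APOE*3, *Nqo2* was at +0.32 (n = 32, SE 0.097, p = 0.003). The rule called 1.98% of all genes in the former comparison and 0.727% in the latter. Neither *Blvra* nor *Nqo2* passed there without mice 61 and F6, where they were at −0.45 and +0.23.

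For the allele, no list gene was called over all mice. The smallest p were those of *Prdx6*, a peroxiredoxin (−0.30, n = 48, SE 0.087, limma p = 0.00129, adjusted p = 0.188), and *Cbr3*, a carbonyl reductase (−0.57, SE 0.17, p = 0.00207, adjusted p = 0.222). In the 32 *APOE*-TR mice 6 of 46 were called, beside 5.96% of all genes. The 951 genes called in all became 478 without *APOE*4 air female 26 and 2424 without *APOE*3 nPM female 67. *APOE*4 was lower in *Me1* (−0.23), *Prdx6* (−0.27), *Blvrb* (−0.32), *Ftl1* (−0.49) and *Cbr3* (−0.55, adjusted p = 0.00376), and higher in *Sesn2* (+0.65, adjusted p = 0.000349), a stress-induced sestrin. *Cbr3*, *Me1*, *Prdx6* and *Sesn2* remained called without mice 61 and F6.

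*Cbr3* was also called in air females, at 20.8 ± 3.55 CPM in *APOE*3 and 9.0 ± 1.43 CPM in *APOE*4 (SD, n = 4 each), a log2 difference of −1.09 (SE 0.15, adjusted p = 0.0283, exact permutation p = 0.0286). It was called without both 61 and F6, but not when 61, 63, F6, 21, 26 or 38 alone was left out. *Sesn2* was called in air males, at 5.07 CPM in *APOE*3 and 7.59 CPM in *APOE*4 (+0.54, SE 0.10, adjusted p = 0.0489), and with 1 mouse left out it remained called only without *APOE*4 mouse 21.

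How the 9 genes vary together was described over the *APOE*-TR mice, after the mean of each of the 8 groups was removed. These correlations share library, tissue piece and scaling, and are given as a description. Over 32 mice the 36 pairs had a median Pearson r of 0.070, with 24 above 0. The glutathione ligase pair *Gclc* and *Gclm*, subunits of 1 enzyme, had r = 0.25, and *Gclm* and *Slc7a11* had r = 0.39. *Gss*, *Gsr*, *Nqo1* and *Srxn1*, grouped after the values were seen, had 6 pairs with r from 0.37 to 0.67 (median 0.48). The pair of *Nqo1* with *Gclm*, outside this set of 4, had r = 0.45, within that range, and *Nqo1* with *Slc7a11* had 0.35. The same 4 genes had r of 0.65, 0.67, 0.71 and 0.70 with the summed mitochondrial transcripts, while the other 5 had r from −0.033 (*Txnrd1*) to 0.20 (*Hmox1*).

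Mice 61 and F6 carried much of this. Over the 30 *APOE*-TR mice without them, the 6 pairs had a median r of 0.26, all above 0, and the r with mitochondrial transcripts was 0.39 for *Gss*, 0.58 for *Gsr*, 0.51 for *Nqo1* and 0.52 for *Srxn1*. *Gclc* and *Txnrd1* then had r of 0.34 and 0.35. In the 16 B6 mice, with 4 group means removed, 13 of 28 pairs were above 0 with a median r of −0.14. The pairs with *Nqo1* could not be computed there. *Gss* with *Gsr* had r = 0.14, *Gss* with *Srxn1* −0.31 and *Gsr* with *Srxn1* −0.45. These pairs were thus not all above 0, as they were in *APOE*-TR mice. The strongest B6 pairs were *Gclc* with *Gss* (r = 0.66) and *Txnrd1* with *Gss* (r = −0.65). The mitochondrial sum was read from the *APOE*-TR table alone.

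**Figure D5:**
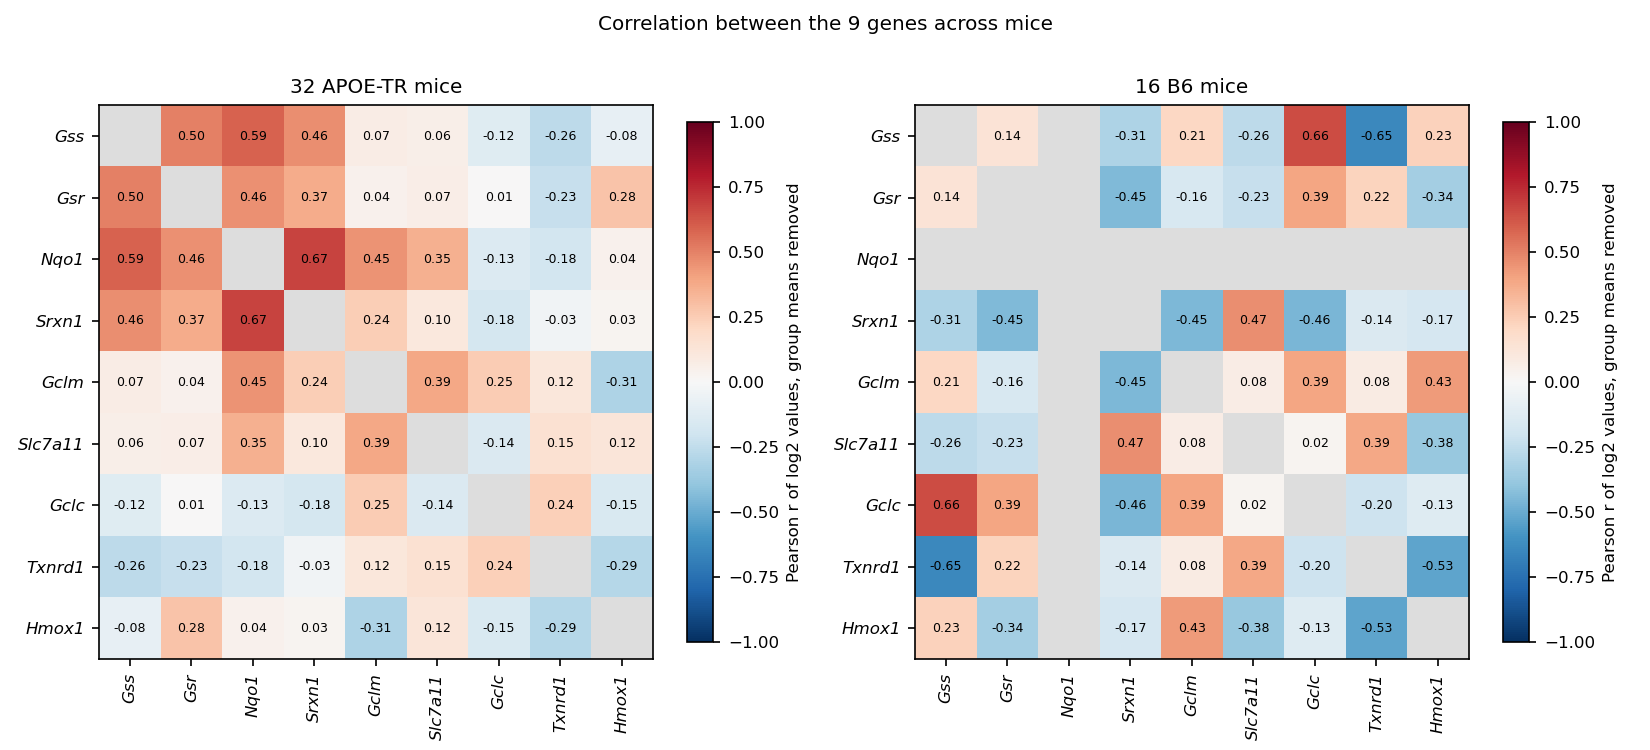
Pearson r of log2 values between each pair of the 9 genes, with group means removed, over 32 *APOE*-TR mice (left) and 16 B6 mice (right), with red for r above 0 and blue below; grey marks the diagonal and *Nqo1* in B6 mice, which had mice without reads. The upper left block of *Gss*, *Gsr*, *Nqo1* and *Srxn1* is red in *APOE*-TR mice, with r up to 0.67, and mixed in B6 mice.

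The genes whose levels followed each of the 9 most closely were sought among 15957 genes over the 32 *APOE*-TR mice, by the highest r of the same values. *Slc7a11* was followed by *Slc6a20a* (0.80), *Gjb2* (0.72) and *Vnn1* (0.71), and the B6 r for *Slc6a20a* was 0.50. *Gclm* was followed by *Impad1* (0.80, B6 0.56), *Mkln1* (0.77, B6 0.67) and *Smim17* (0.77, B6 −0.15). *Gclc* was followed by *Mid2* (0.76, B6 0.29), *Pcdhb21* (0.75) and *Gad2* (0.74, B6 0.40), the last a glutamate decarboxylase of inhibitory neurons.

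*Hmox1* was followed by *Lgals3bp* (0.78, B6 −0.18), *Haao* (0.77) and *Gfap* (0.75, B6 −0.47), the last an astrocyte intermediate filament. *Txnrd1* was followed by *Zfp180* (0.77, B6 −0.36), *Amot* (0.76, B6 −0.12) and *Ppp1r16b* (0.73, B6 0.23). *Gss* was followed by *Cgrrf1* (0.86, B6 −0.18), *Ldha* (0.85, B6 0.11) and *Uchl3* (0.85, B6 −0.74), and *Gsr* by *Galk2* (0.82, B6 −0.059), *Dbi* (0.81, B6 −0.12) and *Gins4* (0.81, B6 0.092). *Nqo1* was followed by *Fez1* (0.88), *Dbt* (0.88) and *Prkar1a* (0.87), and *Srxn1* by *Timm22* (0.87, B6 0.16) and *Cyp2j9* (0.86, B6 0.46). Without mice 61 and F6, over 30 mice, these r lay between 0.67 (*Gad2* with *Gclc*) and 0.81 (*Lgals3bp* with *Hmox1*). Where no B6 value is given, it could not be computed or the gene was not tested in those mice.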

How the data were processed

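RNA was extracted from the cerebral cortex of 48 mice with TRIzol and RNeasy, and stranded mRNA libraries were sequenced with single-end reads. The authors mapped reads to mm10 with TopHat2 (2.0.8b) and deposited CPM per gene and mouse from Partek, in separate tables for the B6 and *APOE*-TR exposures. Each *APOE*-TR value is close to a whole number of reads plus 1, times the lowest value of that mouse (whole within 0.1 for 96.1% to 97.1% of low values), so reads could be recovered there. In B6 mice this held for 87.7% to 98.4%, so their reads are estimates. Duplicated symbols, 4 listings per table, were not used.

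TMM factors (edgeR 4.0.16) rescaled the CPM, and 0.5 was added before log2, which understates differences of low genes. A gene entered a fit where all its mice exceeded 1.5 times their lowest value. limma 3.58.1 (R 4.3.3, variance trend) gave p-values, adjusted by Benjamini-Hochberg. As in the study's methods, nPM calls had an unadjusted p under 0.005 and allele calls 5% FDR, the latter also used for sex. Values given per mouse, means and SDs are deposited CPM, and log2 differences are of rescaled CPM. Sex, genotype and nPM were the terms of the fit of all 48 mice. Fits of 8 mice compared 4 with 4, with two-sided exact permutation tests over 70 labelings, whose smallest p is 0.0286. Intervals are 95% intervals and n is mice. The procedure was tested on simulated data.

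Exon lengths and overlapping genes are from GENCODE M21, and promoter windows from RefSeq. Genes named are the 9 genes, list genes past the rule or else the 2 with the smallest p over all mice, *Apoe*, markers that move with a result, and the 3 genes most correlated with each of the 9. 1 gene under this rule is not reported here. The genes and lists were chosen with earlier results of these data known. The *APOE*-TR and B6 fits, the sex comparison and all runs without mice 61 and F6 were added after the data were seen. Alternatives were pseudocounts of 0.1 and 2, no TMM, no filter, at least 10 reads, voom, edgeR quasi-likelihood on recovered reads (*APOE*-TR fits), voom with ComBat (sva 3.50.0), shared variance over 12 groups and each mouse left out. Floors of 3 counts were 0.0659 to 0.144 CPM in *APOE*-TR and 0.0775 to 0.761 CPM in B6 mice, for counting error only.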

Additional observations from a re-analysis of the deposited data

Results flagged for a closer look

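In groups of 4 mice, the highest or lowest value was marked where its gap to the nearest other mouse, as a share of the group's range, was over Dixon's 95% critical value. Of 108 checks, 8 were marked, and chance marks about 1 in 20. *Gclm* stood at 15.2 CPM in *APOE*3 air male 55 against 17.2 to 17.6 in the others, and at 12.4 CPM in *APOE*4 nPM female 23 against 14.5 to 14.6. *Slc7a11* stood at 76.2 CPM in *APOE*3 nPM female 70 against 59.9 to 61 in the others, and this mouse alone made the *Slc7a11* ranges of air and nPM overlap. *Nqo1* stood at 3.72 CPM in *APOE*4 air male 21 against 3.11 to 3.17, a difference that rests on 121 reads in that mouse, and at 4.64 CPM in *APOE*4 air female 7 against 2.82 to 3.08. *Txnrd1* stood at 42.6 CPM in *APOE*4 nPM female 08 against 37.2 to 38.1. *Srxn1* stood at 65.8 CPM in B6 air male 2 against 71.4 to 72.0, and at 73.2 CPM in B6 nPM male 12 against 61.1 to 62.8. Each of these mice lay within the range of the other groups of its table for that gene.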

How the results depend on the processing

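No paired analysis was possible because the labels number animals and share no numbers that pair groups. Over alternatives that leave out no single mouse, 790 of 811 followed log2 differences of the 9 genes kept their direction and side of the threshold. Of the others, 15 reversed, 4 came to pass it and 2 no longer did. With 1 mouse left out, 537 of 568 kept both, 3 reversed, 5 came to pass it and 23 no longer did. Only *Gclm* in the 32 mice had passed to begin with, so only it could lose a call, and all of these losses are its own. Losses of the other NRF2 target genes, given above where they were named, are not in these counts. Differences within their own SE in fits of 8 mice were not followed, a choice made after seeing the results. In B6 females shared variance called 2 genes, *Gss* (0.79) and *Srxn1* (−0.33), against 0, beside 1180 of 11067 genes in all. The shared variance takes in the less variable *APOE*-TR groups and can understate the spread of B6 mice. The allele comparison over all mice called 1 (*Gclm*) with the 32 *APOE*-TR mice alone. The sex comparison called 1 (*Gclc*, −0.099) with at least 10 reads, beside 3722 of 9667 genes. The 32-mouse allele comparison called 0 without a filter, 0 without mice 61 and F6, and 0 to 2 with 1 mouse left out. The reversed differences had been at most 0.0952 in size. For nPM over all mice these were *Gss* with ComBat (−0.0063) and in the *APOE*-TR mice alone (−0.028), *Gclc* in the *APOE*-TR mice alone (0.0096) and *Slc7a11* in the B6 mice alone (0.0027). For nPM in the 32 mice *Gclc* reversed without TMM (−0.0088), and in the B6 mice *Gsr* (0.031) and *Hmox1* (0.00011) without a filter. Without mice 61 and F6, *Gclc* (−0.0031) and *Gss* (0.029) reversed for nPM in the 32 mice, *Gsr* for the allele over all mice (0.031) and in the 32 (0.017), *Nqo1* in the 32 (0.076), and *Gss* (−0.11), *Txnrd1* (0.017) and *Srxn1* (−0.034) for the response of *APOE*4 minus that of *APOE*3. With 1 mouse left out the 32-mouse allele differences ran from −0.028 to 0.0022 for *Gsr* and from −0.066 to 0.028 for *Nqo1*. The cause of these changes was not tested. Over all genes, nPM calls in all mice numbered 165, against 107 with ComBat and 37 without mice 61 and F6. Depth limits *Hmox1*, *Nqo1* and *Gss* most, and of B6 mice the shallowest most.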
